A study of Mus musculus with 11 samples.

Results

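Collagen genes were read as every row of the pancreas and adipose count tables whose gene symbol is Col, a number, the letter a and a number, which gave 44 of the 55350 genes listed in either table. They were split into 11 fibrillar genes, 6 basement membrane genes (the type IV chains) and 27 other collagens. The RNA came from pancreas (2 control mice, 3 OA-AP mice) and from epididymal fat (3 control mice, 3 OA-AP mice), where OA-AP is acute pancreatitis set off by alcohol in obese animals. All mice were wild type, of strain C57BL/6 and 16 weeks old by the labels. The control mice ate normal chow for 12 weeks and received saline. The OA-AP mice were fed fat-rich chow over the same 12 weeks and were then given 2 ethanol injections of 2 g/kg into the peritoneum, 1 h apart, with tissue taken 12 h after the earlier injection. The effects of diet, of ethanol and of pancreatitis itself cannot be told apart, and no mouse treated with CQCQD was analysed here.

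Collagens are secreted proteins whose chains wind in threes into a helix inside the endoplasmic reticulum before they are exported and assembled in the extracellular matrix. Fibrillar collagens (types I, III and V are the common ones in soft tissue) build the load-bearing fibrils and are made mainly by fibroblasts, while type IV collagen forms the sheet under endothelium and epithelium and around each adipocyte. The other collagens anchor these networks, decorate fibrils or sit in cell membranes, and type VI, a microfilament collagen, is abundant around adipocytes.

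The pancreas libraries held 14188832 to 17238919 counts on genes and the adipose libraries 20825177 to 27928097. Acinar genes, mostly digestive enzymes, made up 81.9% and 83.4% of all control pancreas counts and 67.6% to 70.2% of those in OA-AP pancreas. The unit of level below is CPM, a count relative to the library size after scaling with edgeR's TMM factors, which take this difference in makeup into account. The choice of scaling matters in the pancreas, where plain library totals shift the all-gene median by 0.71 on the log2 scale. In adipose tissue the library of control replicate 2 stood apart with 1.17% of its counts on acinar genes, against 0.0186% to 0.0260% in the other 5. The 6 adipocyte markers summed to 26081 to 26548 CPM in control and 27767 to 29650 CPM in OA-AP adipose tissue, where Plin1 was called lower (log2 fold change -1.47) and Lep higher (2.38), and their part in the collagen results was not tested.

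Several type IV genes lie head to head, so their start regions are shown first. On GRCm38, the 5′ ends of Col4a1 and Col4a2 are 21 bases apart on chromosome 8, those of Col4a3 and Col4a4 72 bases apart on chromosome 1, and those of Col4a5 and Col4a6 1309 bases apart on the X chromosome. The exons of Col4a1 and Col4a2 overlap by 22 bases on opposite strands, and whether the counting used strand is not stated. The 6 promoter windows below are those of the head-to-head type IV pairs with both windows in the RefSeq table and of the 2 members with the largest decreases in adipose tissue. Each runs from 250 bases before to 50 bases after the RefSeq start (GRCm38.p6), 5′ to 3′ on the gene's strand. Capitals mark every CCAAT box (CCAAT), GC box (GGGCGG) and TATA box (TATAAA) on either strand. The windows of Col4a1 (chr8:11312777-11313076, minus strand) and Col4a2 (chr8:11312555-11312854, plus strand) share 78 bases.
Col4a1: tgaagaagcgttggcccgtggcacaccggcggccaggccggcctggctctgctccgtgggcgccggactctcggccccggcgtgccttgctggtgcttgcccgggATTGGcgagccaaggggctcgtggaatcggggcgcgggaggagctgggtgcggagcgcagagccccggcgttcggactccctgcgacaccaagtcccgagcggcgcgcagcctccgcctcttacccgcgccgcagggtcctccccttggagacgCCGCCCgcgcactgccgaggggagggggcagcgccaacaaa
Col4a2: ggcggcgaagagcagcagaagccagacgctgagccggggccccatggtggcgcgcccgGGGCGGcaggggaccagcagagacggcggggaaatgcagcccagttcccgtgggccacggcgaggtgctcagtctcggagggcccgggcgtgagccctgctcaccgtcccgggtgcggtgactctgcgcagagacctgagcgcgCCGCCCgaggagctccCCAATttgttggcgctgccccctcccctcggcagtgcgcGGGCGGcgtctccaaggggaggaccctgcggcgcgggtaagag
The windows of Col4a5 (chrX:141475169-141475468, plus strand) and Col4a6 (chrX:141474027-141474326, minus strand) share none.
Col4a5: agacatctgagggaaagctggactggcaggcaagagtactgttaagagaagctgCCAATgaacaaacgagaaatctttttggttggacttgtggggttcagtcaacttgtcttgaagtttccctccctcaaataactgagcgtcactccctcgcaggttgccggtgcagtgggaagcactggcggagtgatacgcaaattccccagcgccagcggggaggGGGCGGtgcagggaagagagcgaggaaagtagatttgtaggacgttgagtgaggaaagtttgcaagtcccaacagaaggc
Col4a6: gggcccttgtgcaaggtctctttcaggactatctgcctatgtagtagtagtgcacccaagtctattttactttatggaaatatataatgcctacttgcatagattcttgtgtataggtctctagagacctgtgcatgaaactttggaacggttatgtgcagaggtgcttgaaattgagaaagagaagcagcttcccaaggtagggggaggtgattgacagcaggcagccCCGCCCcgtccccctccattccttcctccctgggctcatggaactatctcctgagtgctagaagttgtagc
Col6a5 (chr9:105960594-105960893, minus strand) and Col6a6 (chr9:105828036-105828335, minus strand), neighbours on chromosome 9, are the 2 members with the largest decreases in adipose tissue.
Col6a5: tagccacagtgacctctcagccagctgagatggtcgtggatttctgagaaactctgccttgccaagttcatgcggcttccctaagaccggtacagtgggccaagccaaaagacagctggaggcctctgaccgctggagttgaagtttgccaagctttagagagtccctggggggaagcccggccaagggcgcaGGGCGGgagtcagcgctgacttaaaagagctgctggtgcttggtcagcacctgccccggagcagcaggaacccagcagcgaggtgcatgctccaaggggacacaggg
Col6a6: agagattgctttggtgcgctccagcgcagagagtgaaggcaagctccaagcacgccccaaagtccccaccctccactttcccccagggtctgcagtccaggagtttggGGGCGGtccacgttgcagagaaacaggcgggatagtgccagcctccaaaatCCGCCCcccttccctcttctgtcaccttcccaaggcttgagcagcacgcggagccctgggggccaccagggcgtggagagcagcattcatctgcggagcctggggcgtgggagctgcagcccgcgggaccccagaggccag
Among the 35 collagen genes with a RefSeq promoter, GGGCGG (or its complement CCGCCC) was in 22, or 62.86%, against 35.91% of all 27025 promoters of the same length. CCAAT (or ATTGG) was in 34.29% of the collagen windows and 37.92% of all, and TATAAA (or TTTATA) in 14.29% and 14.16%. All 6 windows printed hold GGGCGG and none holds TATAAA, and Col4a1, Col4a2 and Col4a5 also hold CCAAT. These are matches of letters only. No window was matched for Col1a1, Col2a1, Col4a3, Col5a2, Col9a3, Col12a1, Col14a1, Col22a1 and Col26a1.

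Of the 44 collagen genes, 25 had enough counts to be tested in the pancreas and 34 in adipose tissue, and 10 were tested in neither. A gene was called changed at a Benjamini-Hochberg adjusted p under 0.05 with a fold change of at least 1.5, in edgeR's quasi-likelihood test of each tissue apart. In the pancreas 3 collagen genes were upregulated and 5 downregulated, beside 29.8% of all tested genes called, 16.2% up and 13.5% down. With plain library totals the pancreas had 6 increases and 1 decrease (Col15a1), so the other 4 decreases there hold relative to the tissue's other genes under TMM scaling. In adipose tissue 5 were upregulated and 10 downregulated, beside 25.1% of all tested genes called, 12.1% up and 13% down. Tested members had a median log2 fold change of -0.41 in the pancreas and -0.57 in adipose tissue, where the medians over all genes were 0.04 and -0.01. The groups did not overlap for 17 of the 25 members tested in the pancreas, 6 higher and 11 lower in OA-AP, beside 62.3% of all tested genes (32.9% higher and 29.4% lower). In adipose tissue this held for 17 of 34 members, 5 higher and 12 lower, beside 52.4% of all tested genes (26.4% higher and 26% lower). At an adjusted p under 0.05 whatever the fold, 9 members passed in the pancreas, where 33% of all tested genes did, and 15 in adipose tissue, where 36.8% did. Altogether 21 members were called in at least 1 tissue. Only Col4a1 and Col4a2 were called in the same direction in both tissues, and no member was called in opposite directions.

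**Figure D1:**
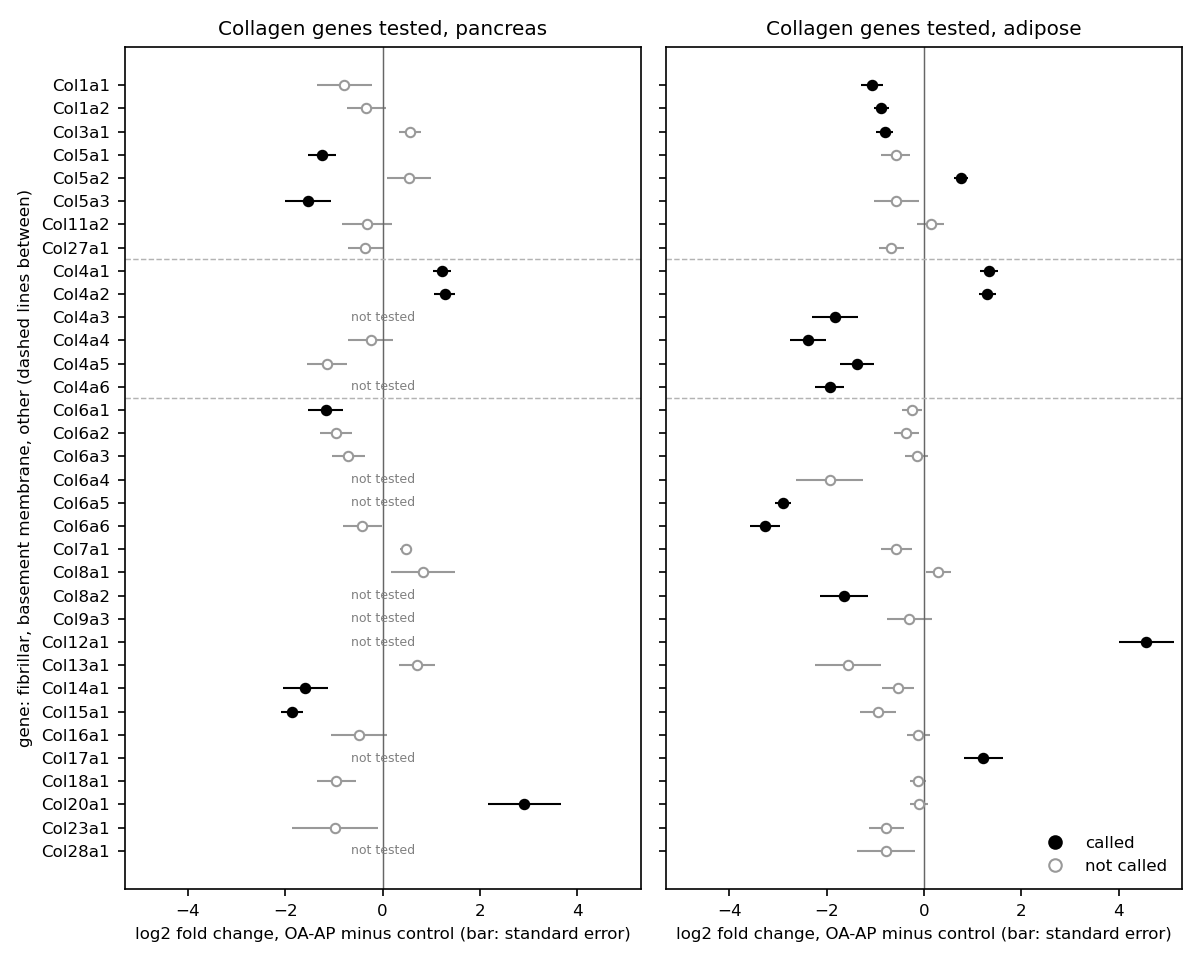
Log2 fold change (OA-AP minus control, horizontal axis) of each collagen gene tested in either tissue (vertical axis), with bars for the standard error and filled points for called genes, and dashed lines between fibrillar, basement membrane and other collagens. Col4a1 and Col4a2 lie to the right of 0 in both panels, and in adipose tissue the other 4 type IV chains lie to the left.

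Levels of different genes are compared per kb of deposited gene length. For 42 of the 44 members this length is the union of all exons in GENCODE M21, and the ranks depend on it. By CPM without length, Col1a2 ranked 5 in control pancreas and 4 in control adipose tissue, and Col6a1 ranked 7 and 6. In the pancreas of control mice the highest collagen gene was Col7a1, which encodes the anchoring fibril collagen of epithelial basement membranes, at 16.7 ± 0.454 CPM per kb (SD, n = 2). It made up 41.7% of the summed collagen level per kb. Col4a1 came next at 4.45 ± 0.148, and Col4a2 (2.77 ± 0.195), Col6a1 (2.54 ± 0.728) and Col3a1 (2.33 ± 0.816 CPM per kb) followed with overlapping values. In control adipose tissue Col4a1 was highest at 167 ± 6.97 CPM per kb (SD, n = 3). Col3a1 (118 ± 21.8) and Col4a2 (110 ± 9.05) overlapped, Col6a1 stood below them at 84.9 ± 4.83, and Col5a3 (60.2 ± 20.7) overlapped with Col15a1 (56.5 ± 23.9 CPM per kb). The tissues were normalized apart, so levels are not compared between them. No count was seen for 7 members in any pancreas library (Col2a1, Col9a1, Col19a1, Col22a1, Col24a1, Col25a1 and Col26a1), which allows up to 0.157 to 0.299 CPM in a library at 3 counts. In adipose tissue each of the 44 members had a count in at least 1 library.

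The summed level of the 6 basement membrane genes was higher in OA-AP in both tissues. In the pancreas it was 58.0 and 61.8 CPM in control mice and 130, 101 and 147 CPM in OA-AP mice. In adipose tissue it was 2106, 2069 and 1935 CPM in control mice and 3935, 5860 and 5118 CPM in OA-AP mice. The groups do not overlap in either tissue, and the ratio of the means was 2.10 in the pancreas and 2.44 in adipose tissue. These are tissue RNA levels, in which a change in the number of cells of a type and a change in RNA per cell cannot be told apart.

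The fibrillar sum was lower in OA-AP adipose tissue and overlapped between the groups in the pancreas. In adipose tissue it was 3180, 2332 and 2794 CPM in control mice and 1366, 2037 and 1829 CPM in OA-AP mice, without overlap and with a ratio of 0.630. In the pancreas it was 69.6 and 46.8 CPM in control mice and 60.6, 70.5 and 44.9 CPM in OA-AP mice, so the groups overlap. The 27 other collagens summed to 237 and 216 CPM against 271, 288 and 291 CPM in the pancreas, most of it Col7a1, and to 1855, 1531 and 1519 CPM against 1045, 1458 and 1427 CPM in adipose tissue. With 2 against 3 or 3 against 3 libraries an exact permutation test cannot reach a p under 0.05, so no p is given for the sums. All 44 genes together took 0.0226% and 0.0289% of the counts in control pancreas, and 0.0535% to 0.0608% in OA-AP pancreas. In adipose tissue this share overlapped between the groups, at 0.620% to 0.749% in control mice and 0.588% to 0.909% in OA-AP mice. The pancreas sums depend on the scale. As a share of all counts the pancreas ratios rise to 1.64 for fibrillar, 3.43 for basement membrane and 2.04 for other collagens, and of these the fibrillar groups still overlap.

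**Figure D2:**
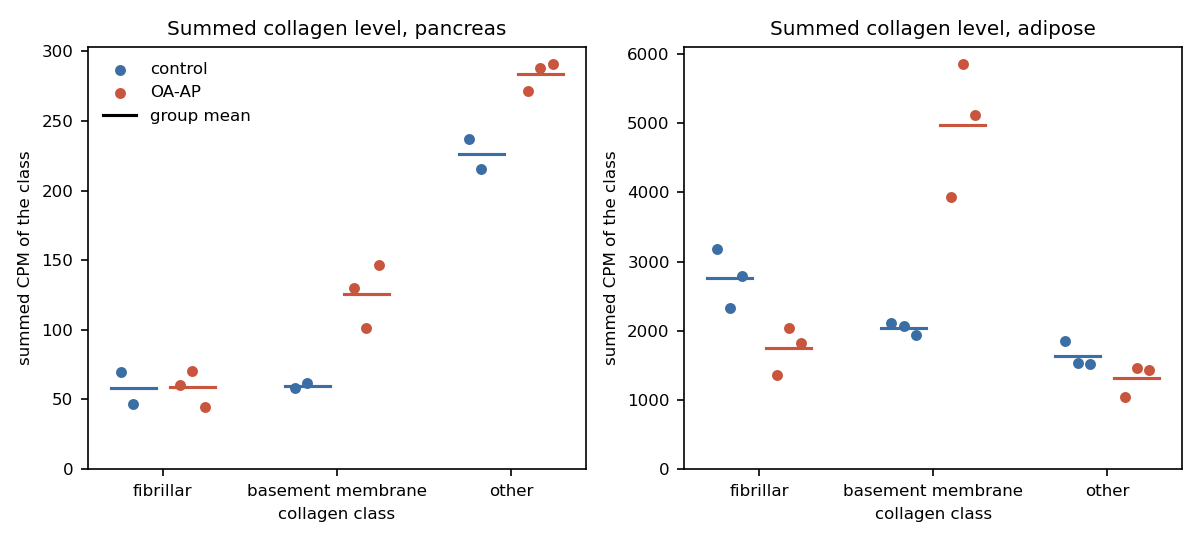
Summed CPM of fibrillar, basement membrane and other collagen genes (vertical axis, starting at 0) in each library of the pancreas (left) and adipose tissue (right), with a bar at each group mean. The OA-AP libraries lie above the control libraries for the basement membrane genes in both tissues, and below them for the fibrillar genes in adipose tissue.

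Col4a1 and Col4a2 encode the chains of the type IV collagen found in nearly all basement membranes, and both rose in both tissues. In the pancreas Col4a1 was at 32.4 and 34.0 CPM in control mice and at 81.0, 61.4 and 89.1 CPM in OA-AP mice. Each OA-AP library was above both control libraries, with a log2 fold change of 1.22 ± 0.18 (SE, adjusted p = 0.0020). Pancreatic Col4a2 was at 17.4 and 19.2 CPM in control mice and at 43.7, 34.2 and 55.4 CPM in OA-AP mice, again without overlap (1.28 ± 0.21, adjusted p = 0.0035). In adipose tissue Col4a1 was at 1251, 1293 and 1190 CPM in control mice and at 2470, 3714 and 3286 CPM in OA-AP mice. Adipose Col4a2 was at 793, 726 and 673 CPM in control mice and at 1449, 2118 and 1819 CPM in OA-AP mice. All 3 OA-AP libraries exceeded the 3 controls for both genes, with log2 fold changes of 1.34 ± 0.18 for Col4a1 and 1.30 ± 0.17 for Col4a2 (adjusted p = 0.0022 for each). The test of the difference between tissues gave 0.12 ± 0.28 for Col4a1 and 0.01 ± 0.29 for Col4a2 on the log2 scale, and neither passed the threshold. Without control replicate 1, with a lone control left, the log2 fold change of pancreatic Col4a2 was 1.21 and its adjusted p 0.055.

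The level of Col4a1 over Col4a2 stayed close within each tissue. Per kb the ratio was 1.61 ± 0.0597 in control and 1.55 ± 0.115 in OA-AP pancreas, and 1.52 ± 0.101 in control and 1.56 ± 0.0453 in OA-AP adipose tissue (SD), with overlapping groups in both. Relative to fibrillar chains Col4a1 shifted strongly in adipose tissue. Its ratio to Col3a1 was 1.46 ± 0.353 in control and 6.23 ± 0.709 in OA-AP mice, and its ratio to Col1a2 was 3.90 ± 0.552 in control and 17.9 ± 0.697 in OA-AP mice. Neither ratio overlapped between the adipose groups. In the pancreas the ratio to Col1a2 was also higher without overlap, at 4.65 ± 1.87 in control and 15.3 ± 9.98 in OA-AP mice. The ratio to Col3a1 overlapped there (2.04 ± 0.777 and 3.05 ± 0.892). In OA-AP adipose tissue Col4a1 and Col4a2 made up 39.1% and 25.1% of the summed collagen level per kb, against 19.7% and 13.1% in control mice.

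The other 4 type IV chains, which form more restricted networks such as that of the kidney glomerulus, fell in adipose tissue. Col4a5 was at 31.6, 28.6 and 37.1 CPM in control mice and at 10.1, 19.95 and 7.37 CPM in OA-AP mice. Col4a6 was at 17.8, 12.8 and 23.5 CPM in control mice and at 5.55, 5.43 and 3.13 CPM in OA-AP mice. Every OA-AP library was below every control library for both, with log2 fold changes of -1.37 ± 0.35 (adjusted p = 0.023) and -1.94 ± 0.30 (adjusted p = 0.0035). Col4a4 was at 9.26, 6.36 and 7.999 CPM in control mice and at 0.778, 2.40 and 1.31 CPM in OA-AP mice. Col4a3 was lowest, at 3.47, 1.74 and 3.30 CPM against 0.311, 1.15 and 0.909 CPM. Their log2 fold changes were -2.38 ± 0.38 (adjusted p = 0.0039) and -1.83 ± 0.47 (adjusted p = 0.021), also without overlap. The calls of Col4a3 and Col4a5 depend on single libraries, and that of Col4a5 was also lost without the filter on low counts. The adjusted p of Col4a3 was 0.0728 without control replicate 1, 0.0746 without control replicate 3 and 0.0566 without OA-AP replicate 3, and that of Col4a5 was 0.0621, 0.0764 and 0.0566 without control replicate 1, control replicate 3 and OA-AP replicate 1. In the pancreas Col4a5 was at 5.84 and 6.38 CPM in control mice and at 3.10, 3.89 and 1.31 CPM in OA-AP mice, which did not pass the test (-1.14 ± 0.41, adjusted p = 0.067). Pancreatic Col4a4 overlapped between the groups at 0.784 to 1.20 CPM, and Col4a3 and Col4a6, at no more than 0.772 CPM, were not tested there.

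**Figure D3:**
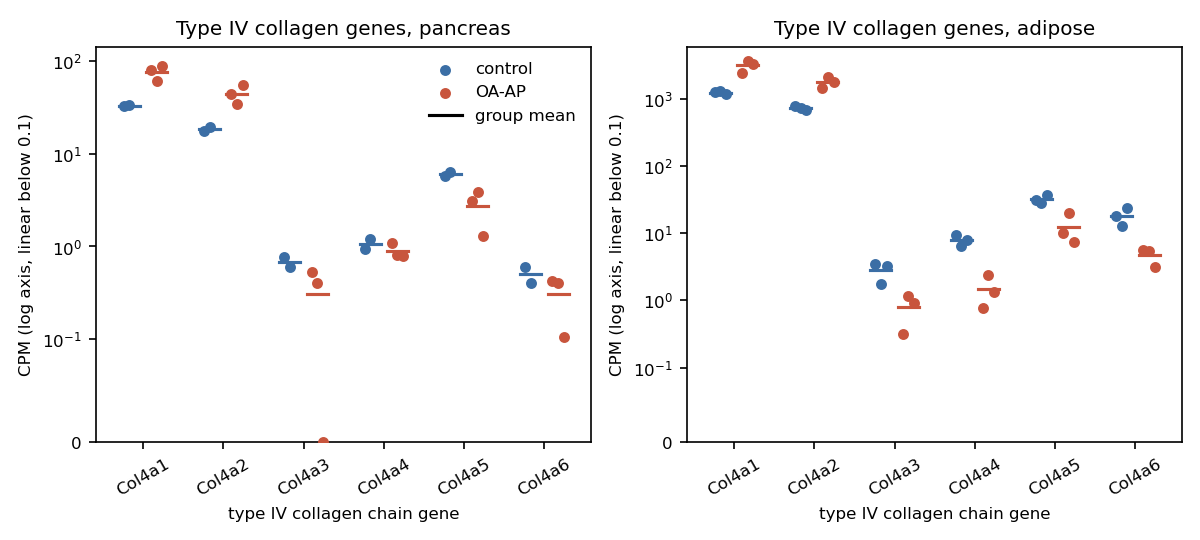
CPM (vertical log axis, linear below 0.1) of the 6 type IV collagen genes in each library of the pancreas (left) and adipose tissue (right), with a bar at each group mean. In adipose tissue the OA-AP points lie above the control points for Col4a1 and Col4a2 and below them for the other 4 genes.

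Of the 8 fibrillar genes tested in adipose tissue, 3 fell and 1 rose, or 50% called, beside 25.1% of all tested genes. Col1a1 and Col1a2, the chains of type I collagen, and Col3a1, the type III chain, were the ones that fell. Col3a1 was at 1305, 912 and 1255 CPM in control mice and at 597, 717 and 672 CPM in OA-AP mice. Col1a1 was at 405, 242 and 438 CPM in control mice and at 148, 196 and 174 CPM in OA-AP mice. Col1a2 was at 581, 475 and 555 CPM in control mice and at 241, 339 and 298 CPM in OA-AP mice. The groups do not overlap for any of the 3 genes, and the log2 fold changes were -0.81 ± 0.17 for Col3a1 (adjusted p = 0.011), -1.07 ± 0.23 for Col1a1 (adjusted p = 0.012) and -0.88 ± 0.16 for Col1a2 (adjusted p = 0.0061). Without control replicate 3 the adjusted p of Col1a1 was 0.050, just past the threshold.

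Col5a2, a chain of type V collagen that helps start fibrils, went the other way in adipose tissue. It was at 141, 134 and 126 CPM in control mice and at 192, 217 and 268 CPM in OA-AP mice (log2 fold change 0.76 ± 0.14, adjusted p = 0.0064), and each OA-AP library was above each control. Its partner chains Col5a1 (192, 150 and 147 CPM against 64.7, 154 and 109 CPM) and Col5a3 (549, 413 and 268 CPM against 118, 411 and 303 CPM) overlapped between the groups, with the highest OA-AP value in replicate 2 for each. The ratio of Col5a1 to Col5a2 per kb was 1.38 ± 0.146 in control and 0.548 ± 0.224 in OA-AP adipose tissue, and 1.95 ± 0.650 and 0.596 ± 0.233 in the pancreas, lower in OA-AP without overlap in both. Adipose Col11a2 and Col27a1 were not called, with log2 fold changes of 0.14 and -0.67.

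Of the 8 fibrillar genes tested in the pancreas, 2 type V chains fell, and none rose by edgeR or DESeq2 (1, Col3a1, at an unadjusted p under 0.05). The 25% called is under the 29.8% of all tested genes called there. Pancreatic Col5a1 was at 4.63 and 4.89 CPM in control mice and at 2.20, 2.12 and 1.67 CPM in OA-AP mice. Col5a3 was at 4.81 and 5.78 CPM in control mice and at 2.15, 2.63 and 0.732 CPM in OA-AP mice. Neither overlapped, with log2 fold changes of -1.25 ± 0.29 (adjusted p = 0.012) and -1.52 ± 0.47 (adjusted p = 0.041). Col3a1, at 28.6 and 17.2 CPM in control mice and 32.2, 39.3 and 31.0 CPM in OA-AP mice, was higher in each OA-AP library but did not pass the test (0.57 ± 0.23, adjusted p = 0.085). Col1a1 (9.01 and 4.49 CPM against 4.72, 5.66 and 1.46 CPM) and Col1a2 (16.2 and 9.47 CPM against 11.3, 13.8 and 5.60 CPM) overlapped between the groups, as did Col5a2. The 2 control libraries are far apart for the type I chains, with replicate 1 the higher. The calls of Col5a1 and Col5a3 are lost without either control library (adjusted p of 0.0804 and 0.0954 for Col5a1, 0.146 and 0.213 for Col5a3), and that of Col5a3 also without OA-AP replicate 1 (0.0797).

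Among the other collagens, the largest change was that of Col12a1 in adipose tissue. Col12a1 encodes a collagen that sits on the surface of type I fibrils. It was at 8.38, 7.71 and 8.92 CPM in control mice and at 216, 68.1 and 311 CPM in OA-AP mice. The lowest OA-AP library, replicate 2, was still far above the 3 controls, and the log2 fold change was 4.57 ± 0.56 (adjusted p = 0.0020). In the pancreas Col12a1 had no count in the control libraries and 0.210, 0.229 and 0.471 CPM in the OA-AP libraries, too few to be tested. Col14a1, a relative that also binds fibrils, overlapped between the adipose groups (37.5, 50.2 and 53.3 CPM against 18.9, 48.3 and 29.8 CPM). In the pancreas Col14a1 was called lower, at 6.78 and 2.69 CPM in control mice and 2.20, 1.43 and 1.10 CPM in OA-AP mice (-1.59 ± 0.46, adjusted p = 0.032). This call depends on control replicate 1, the higher control, without which the adjusted p was 0.383, and on OA-AP replicate 2 (0.0602).

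Type VI collagen split between its common and its alternative chains in adipose tissue. Col6a5 and Col6a6 encode chains that can take the place of the Col6a3 chain. Col6a5 was at 160, 142 and 183 CPM in control mice and at 22.9, 24.8 and 17.5 CPM in OA-AP mice. Col6a6 was at 33.8, 28.6 and 33.2 CPM in control mice and at 2.38, 5.14 and 2.32 CPM in OA-AP mice. The groups are far apart for both, with log2 fold changes of -2.90 ± 0.16 (adjusted p = 0.00018) and -3.27 ± 0.31 (adjusted p = 0.00079). The third alternative chain, Col6a4, was scarce at 0.627, 0.932 and 1.33 CPM against 0.0518, 0.577 and 0.101 CPM and was not called (adjusted p = 0.065). The common chains Col6a1 (396, 360 and 360 CPM against 226, 409 and 310 CPM), Col6a2 (339, 284 and 297 CPM against 169, 346 and 201 CPM) and Col6a3 (128, 116 and 118 CPM against 107, 72.6 and 147 CPM) overlapped between the groups. OA-AP replicate 2 was the highest OA-AP library for Col6a1 and Col6a2 and the lowest for Col6a3.

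In the pancreas the common type VI chains were lower in every OA-AP library in TMM-scaled CPM, while with library totals the log2 fold change of Col6a3 was 0.0277. Col6a1 was at 13.4 and 8.87 CPM in control mice and at 6.25, 5.89 and 2.72 CPM in OA-AP mice, and was called (-1.17 ± 0.36, adjusted p = 0.041). Col6a2 (10.3 and 6.78 CPM against 4.57, 5.78 and 2.88 CPM, -0.96 ± 0.32) and Col6a3 (4.81 and 4.79 CPM against 3.41, 3.66 and 1.78 CPM, -0.70 ± 0.35) did not pass the test, at adjusted p = 0.052 and 0.15. Pancreatic Col6a6 stood at 1.63 and 1.79 CPM against 0.945, 1.54 and 1.36 CPM (-0.41 ± 0.40, adjusted p = 0.45). The Col6a1 call was lost without control replicate 1 (adjusted p = 0.285), control replicate 2 (0.0952) or OA-AP replicate 1 (0.0524).

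Col15a1 and Col18a1 encode collagens of the basement membrane zone that carry anti-angiogenic fragments. Pancreatic Col15a1 was at 10.5 and 12.1 CPM in control mice and at 2.68, 2.80 and 3.82 CPM in OA-AP mice, without overlap. Its log2 fold change of -1.86 ± 0.23 (adjusted p = 0.00099) was the largest decrease among the collagen genes tested in the pancreas. In adipose tissue Col15a1 (522, 333 and 222 CPM against 122, 238 and 199 CPM) overlapped between the groups and was not called by edgeR (-0.94 ± 0.36, adjusted p = 0.082), while DESeq2 gave it an adjusted p of 0.020. Col18a1 was called in neither tissue.

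Col7a1, the most abundant collagen RNA of the pancreas, was at 175 and 169 CPM in control mice and at 232, 248 and 241 CPM in OA-AP mice. The groups do not overlap, but the log2 fold change of 0.48 ± 0.12 (adjusted p = 0.018) is under the fold change of 1.5 required for a call. With library totals Col7a1 was called higher (1.19), as was pancreatic Col3a1 (1.27). Col20a1, a further collagen of the fibril-associated group, was at 3.09 and 1.10 CPM in control pancreas and at 10.97, 8.64 and 28.8 CPM in OA-AP pancreas. OA-AP replicate 3 was the highest, and the log2 fold change was 2.91 ± 0.76 (adjusted p = 0.034). This call was lost without either control library, and also without the filter on low counts. In adipose tissue Col20a1 ranged only from 3.21 to 4.25 CPM over all 6 libraries.

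The remaining calls in adipose tissue concern scarce genes. Col8a2, a short network-forming collagen chain, was at 2.32, 2.03 and 4.15 CPM in control mice and at 1.61, 0.577 and 0.556 CPM in OA-AP mice (-1.64 ± 0.49, adjusted p = 0.035). Its partner Col8a1 overlapped between the groups at 10.8 to 24.5 CPM. Col17a1, a transmembrane collagen of epithelial cell anchors, was at 0.627, 0.254 and 0.477 CPM in control mice and at 1.30, 0.721 and 1.21 CPM in OA-AP mice (1.22 ± 0.40, adjusted p = 0.047). Col17a1 was not called by DESeq2 (adjusted p = 0.0645), nor by edgeR with library totals (0.0647) or without the filter on low counts (0.0601), and it was too scarce to be tested with at least 10 counts in every sample. The Col17a1 call held without OA-AP replicate 2 and was lost without any of the other 5 libraries (adjusted p of 0.0562 to 0.130). The Col8a2 call was lost without control replicate 1, control replicate 3, OA-AP replicate 2 or OA-AP replicate 3 (0.0655 to 0.115).

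**Figure D4:**
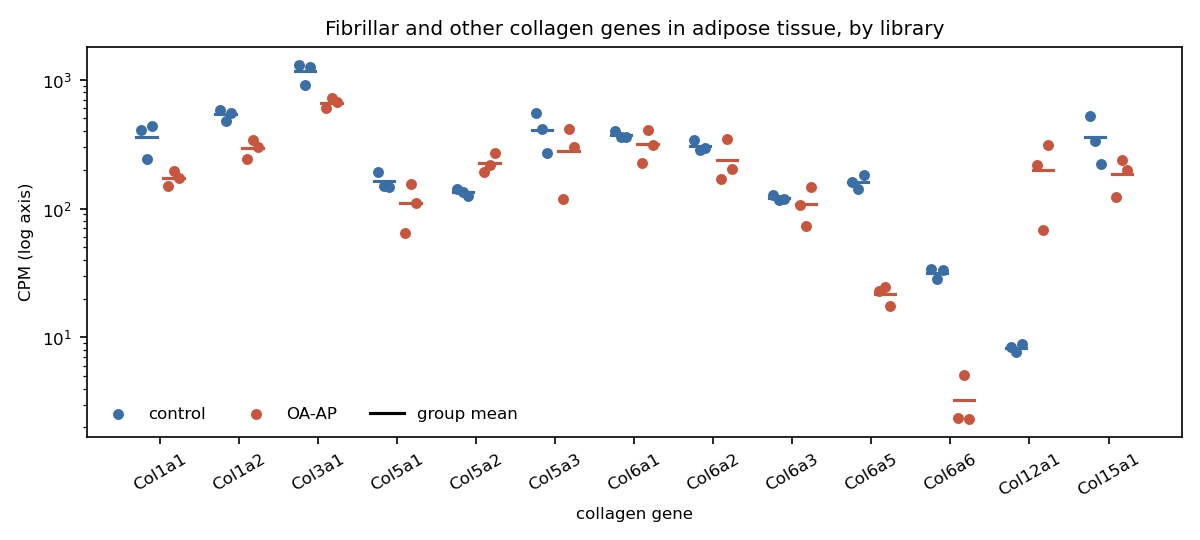
CPM (vertical log axis) of 13 fibrillar and other collagen genes in each adipose library, with a bar at each group mean. Col12a1 lies higher in all 3 OA-AP libraries, Col6a5 and Col6a6 lie lower, and Col5a3, Col6a1 and Col6a2 overlap with OA-AP replicate 2 (the middle point of each OA-AP trio) near the controls.

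OA-AP replicate 2 lay nearer to the controls than the other OA-AP adipose libraries for several of these genes. Without it 5 collagen genes were upregulated and 16 downregulated in adipose tissue, and 9 of the 10 decreases called with all libraries were among the 16. Over all genes that run called 2141 up and 2335 down of 16244 tested, against 1915 and 2066 of 15839 with all libraries. Without control replicate 2, the library with acinar RNA, 4 collagen genes were upregulated and the same 10 downregulated. Over all genes 1835 were then called up and 1729 down of 16050 tested.

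Whether a collagen gene changed differently in the 2 tissues was asked with the tissue by condition term over all 11 libraries, in which 34 members and 17046 genes were tested. The term passed an adjusted p under 0.05 for 5 of the 34 members, a share under the 21.3% of all tested genes. In each of the 5 the change in adipose tissue was the lower. Over all tested genes it was lower in 10.5% and higher in 10.8%. The difference (adipose minus pancreas, log2) was -2.86 ± 0.51 for Col6a6 (adjusted p = 0.0022), -1.39 ± 0.31 for Col3a1 (adjusted p = 0.0078), -3.03 ± 0.73 for Col20a1 (adjusted p = 0.014), -2.14 ± 0.61 for Col4a4 (adjusted p = 0.028) and -1.06 ± 0.31 for Col7a1 (adjusted p = 0.029). Col6a6 and Col4a4 fell in adipose tissue, and in the pancreas their log2 changes were -0.41 and -0.25. Col20a1 rose in the pancreas alone by these calls. Leaving out single libraries lost Col4a4 in 5 of 11 cases, Col7a1 in 4 and Col20a1 in 1, while Col6a6 and Col3a1 passed in every case. The term takes the 11 libraries as independent, and whether same-numbered pancreas and adipose samples came from the same mouse is not stated. With those numbers as a block, Col3a1 and Col6a6 passed, and Col20a1, Col7a1 and Col4a4 did not (adjusted p = 0.0516, 0.0660 and 0.0791).

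The enzymes and chaperones that fold collagen chains were called in the minority, and those called were higher in adipose tissue and of mixed direction in the pancreas. For these and the following lists the difference between the tissues was not tested. Of the folding and hydroxylation list, 7 of 19 tested genes rose in adipose tissue (median log2 fold change 0.48), while in the pancreas 3 of 18 rose and 4 fell (median 0.01). Over all tested genes 12.1% rose and 13% fell in adipose tissue and 16.2% rose and 13.5% fell in the pancreas, so the 3 of 18 is near the share of all genes. P4hb, a subunit of the prolyl hydroxylase that also serves as a general disulfide isomerase, was at 1056 and 1108 CPM in control pancreas and at 462, 528 and 568 CPM in OA-AP pancreas (-1.06 ± 0.14, adjusted p = 0.0014). In adipose tissue P4hb rose from 322, 379 and 343 CPM to 522, 482 and 676 CPM (0.69 ± 0.16, adjusted p = 0.014). Ppib, a prolyl isomerase of the endoplasmic reticulum, fell in the pancreas (-1.27 ± 0.13, adjusted p = 0.00043) and P4ha2, a catalytic hydroxylase subunit, rose there (2.04 ± 0.33, adjusted p = 0.0033). Pancreatic Colgalt2, a collagen galactosyltransferase, was called lower with at most 3 reads in each OA-AP library. In adipose tissue the lysyl hydroxylases Plod1 (0.74 ± 0.12), Plod2 (0.94 ± 0.20) and Plod3 (1.00 ± 0.13) and the prolyl hydroxylase P3h1 (0.68 ± 0.11) rose. Serpinh1, the collagen chaperone, named here after its values were seen, rose in both tissues (0.63 ± 0.19 in the pancreas, 0.63 ± 0.20 in adipose tissue).

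For export and procollagen processing, 3 of 10 tested genes fell in the pancreas, and 4 of 12 rose in adipose tissue (medians -0.04 and 0.33), beside 13.5% of all tested genes lower in the pancreas and 12.1% higher in adipose tissue. Creb3l1, a transcription factor of the secretory pathway that drives procollagen genes, was at 29.7 and 32.8 CPM in control pancreas and at 3.67, 6.01 and 3.61 CPM in OA-AP pancreas (-2.82 ± 0.23, adjusted p = 0.00019). In adipose tissue Creb3l1 was at 26.9, 27.6 and 31.0 CPM in control mice and at 118, 90.1 and 164 CPM in OA-AP mice (2.12 ± 0.22, adjusted p = 0.0010). The groups are apart in both tissues, in opposite directions. Sec24d, a coat protein for procollagen export, did likewise (-1.66 ± 0.16 in the pancreas, 1.10 ± 0.12 in adipose tissue). Bmp1, which trims procollagens, rose in adipose tissue (1.71 ± 0.21), and Pcolce2, which enhances that step, fell in the pancreas (-2.20 ± 0.56, adjusted p = 0.019). These are genes of secretion in general as well as of collagen, and acinar genes fell in the pancreas at the same time, 6 of 8 markers being called lower. The part of this in the pancreas result was not tested.

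Of the crosslinking enzymes, 2 of 6 tested genes rose in the pancreas, and 4 of 7 rose and 2 fell in adipose tissue (medians 0.53 and 1.48). The shares of all tested genes were 16.2% higher in the pancreas, and 12.1% higher and 13% lower in adipose tissue. Lox, the lysyl oxidase that starts crosslinks in fibrils, was at 1.20 and 0.997 CPM in control pancreas and at 12.8, 11.1 and 5.70 CPM in OA-AP pancreas (3.15 ± 0.44, adjusted p = 0.0017). In adipose tissue Lox was at 65.8, 80.2 and 69.5 CPM in control mice and at 370, 867 and 559 CPM in OA-AP mice (3.06 ± 0.31, adjusted p = 0.0011). Lox was thus higher in all OA-AP libraries of both tissues, and its relative Loxl1 also rose in both (1.79 ± 0.35 and 1.48 ± 0.34). Tgm2, a transglutaminase (2.44 ± 0.22), and Loxl4 (1.49 ± 0.20) rose in adipose tissue. Pxdn, the peroxidase that crosslinks type IV collagen, fell there, from 468, 363 and 374 CPM to 131, 226 and 209 CPM (-1.09 ± 0.22, adjusted p = 0.0092).

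**Figure D5:**
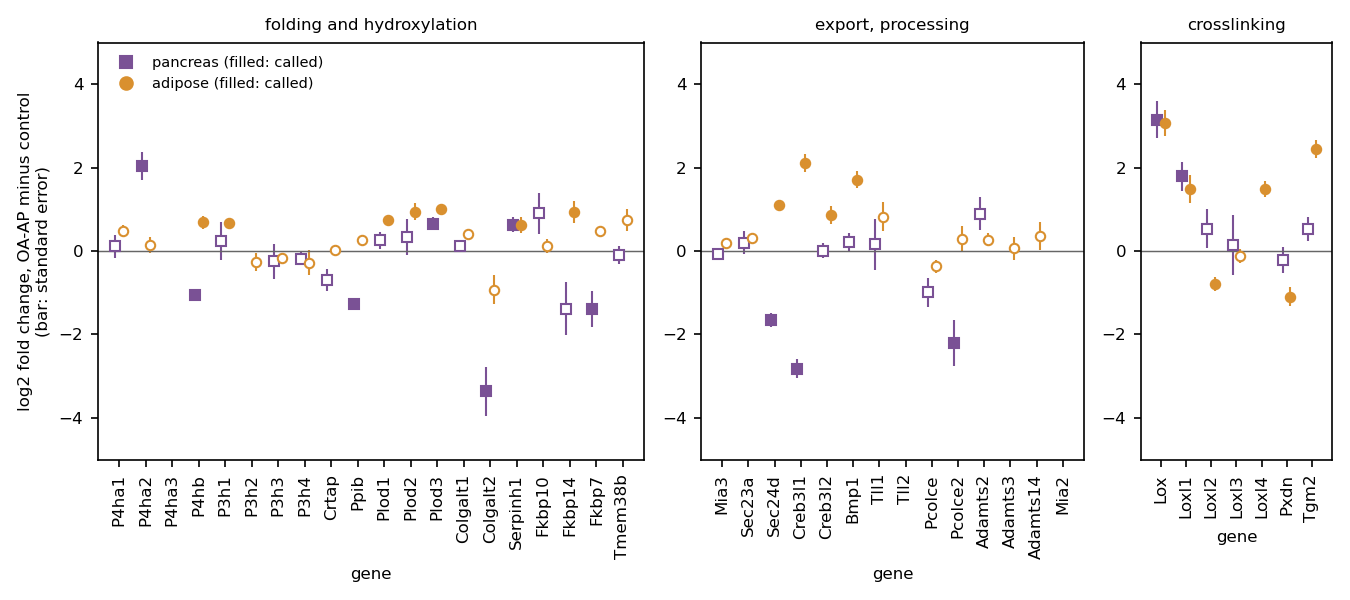
Log2 fold change (OA-AP minus control, vertical axis) of genes for collagen folding, export with processing, and crosslinking in the pancreas (squares) and adipose tissue (circles), with bars for the standard error and filled symbols for called genes. P4hb, Sec24d and Creb3l1 lie below 0 in the pancreas and above it in adipose tissue, and Lox and Loxl1 lie above 0 in both.

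Genes that bind, sense or degrade collagen changed in part. Of the small proteoglycans and other collagen-binding matrix genes, 1 of 15 rose and 1 fell in the pancreas, and 2 of 16 rose and 4 fell in adipose tissue (medians -0.31 and 0.12). The pancreas count is under the 29.8% of all tested genes called there, and the 2 of 16 is near the 12.1% of all genes higher in adipose tissue. Pancreatic Thbs1, a thrombospondin, rose (3.41 ± 0.89, adjusted p = 0.045), and Hspg2, the basement membrane proteoglycan perlecan, fell (-0.67 ± 0.18, adjusted p = 0.022). In adipose tissue Thbs2 rose (2.17 ± 0.12) and Ogn (-2.16 ± 0.27), Dcn (-0.91 ± 0.17) and Tnxb (-0.68 ± 0.13) fell. Of the receptors, 2 of 9 rose in the pancreas, and in adipose tissue 4 of 11 rose and 1 fell (medians 0.59 and 0.10), beside 16.2% of all tested genes higher in the pancreas and 12.1% in adipose tissue. Pancreatic Ddr1, a receptor kinase for collagen on epithelial cells, was at 18.1 and 18.5 CPM in control mice and at 110, 97.7 and 157 CPM in OA-AP mice (2.73 ± 0.23, adjusted p = 0.00024). Itgb1, the shared chain of the collagen integrins, rose in both tissues (0.78 ± 0.15 and 0.70 ± 0.21), Itga1 (0.86 ± 0.13) and Mrc1 (1.21 ± 0.22) rose in adipose tissue, and Itga11 fell there (-2.04 ± 0.27).

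Of the genes for collagen degradation and its inhibitors, 4 of 15 rose in the pancreas, and 4 of 15 rose and 4 fell in adipose tissue (medians 0.49 and -0.15). In the pancreas 29.8% of all tested genes were called, 16.2% higher and 13.5% lower, and in adipose tissue 25.1%, 12.1% higher and 13% lower. Timp1, an inhibitor of matrix metalloproteinases, was at 5.02, 3.81 and 5.11 CPM in control adipose tissue and at 278, 172 and 308 CPM in OA-AP adipose tissue (5.76 ± 0.28, adjusted p = 0.00018). It also rose in the pancreas, from 0 and 0.499 CPM to 2.68, 2.57 and 3.56 CPM (3.603 ± 0.77, adjusted p = 0.010). Mmp3, a stromelysin, and Ctsl, a lysosomal protease, rose in both tissues, by 3.43 ± 0.55 and 1.55 ± 0.24 in the pancreas and by 2.26 ± 0.33 and 0.91 ± 0.17 in adipose tissue. Mmp15 rose in the pancreas (1.497 ± 0.38). Mmp8, the neutrophil collagenase, was at 0.332, 0.0847 and 0.374 CPM in control adipose tissue and at 25.4, 35.3 and 19.1 CPM in OA-AP adipose tissue (6.58 ± 0.42, adjusted p = 0.00027), where the 5 neutrophil markers also rose, from a sum of 6.53 to 12.3 CPM to one of 143 to 178 CPM. In the pancreas the neutrophil sum was 0.944 and 1.89 CPM in control mice and 12.3, 3.15 and 94.4 CPM in OA-AP mice, with none of the 5 markers called by edgeR (1 higher at an unadjusted p under 0.05) and all 5 called higher by DESeq2. OA-AP replicate 3, where this sum was highest, was also the lowest pancreas library for Col1a1, Col5a3, Col6a1, Col6a2 and Col6a3 and the highest for Col20a1. Without it 4 collagen genes were upregulated and 7 downregulated in the pancreas, among them all 3 increases and 5 decreases called with it. Over all genes that run called 2123 up and 2142 down of 12576 tested, against 2090 and 1744 of 12884 with it. The part of neutrophils in the collagen values was not tested.

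Markers of cells that can make collagen are given beside these results. Over all tested genes 12.1% rose and 13% fell in adipose tissue, and 16.2% rose and 13.5% fell in the pancreas. The lists are short, and the 1 of 7 mural and stellate markers called in adipose tissue is near the share of all genes. In adipose tissue 3 of 7 fibroblast markers fell (Dcn, Lum and Clec3b), and the list summed to 2023 to 2302 CPM in control mice and to 1163 to 1586 CPM in OA-AP mice. Most of that sum is Dcn (1607 CPM on average in control and 853 CPM in OA-AP mice), the other 4 markers (Pdgfra, Dpt, Pi16 and Mfap5) were not called, with log2 fold changes of 0.03 to 0.39, and the median of the list was 0.03. Dcn and Lum are also in the list of collagen-binding matrix genes. None of the 8 endothelial markers was called in adipose tissue by edgeR or DESeq2, with 3 higher and 0 lower at an unadjusted p under 0.05. Their sum was 1158 to 1315 CPM in control mice and 1270 to 1920 CPM in OA-AP mice. In the pancreas 2 of 8 endothelial markers (Kdr and Emcn) and 2 of 7 fibroblast markers (Pi16 and Clec3b) fell, with sums of 71.1 and 91.5 CPM against 61.7 to 81.6 CPM for endothelial and 129 and 78.5 CPM against 48.6 to 83.3 CPM for fibroblast genes. Mural and stellate cell markers were called in 1 of 7 genes in adipose tissue (Cspg4, upregulated) and in 0 of 5 in the pancreas by edgeR or DESeq2, also at an unadjusted p under 0.05. Of the Schwann cell markers edgeR called 3 of 4 lower in adipose tissue, where DESeq2 called 2, and 0 of 2 in the pancreas. Their adipose sums overlapped, at 44.0 to 57.7 CPM in control and 41.3 to 62.0 CPM in OA-AP mice. For mesothelial markers edgeR called 0 of 5 in each tissue (medians -1.12 in the pancreas and -0.57 in adipose tissue). DESeq2 called 1 of them lower in the pancreas. None of these lists had all its genes at 0, and their part in the collagen results was not tested.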

How the data were processed

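Total RNA of the pancreas and adipose tissue was sequenced. The authors trimmed reads with Trim Galore 0.6.6, checked them with fastp 0.20.1, aligned to GRCm38 by STAR and assigned reads to genes by featureCounts 2.0.1, and they deposited raw counts without normalization. The annotation release and strand setting are not given in the sources used here. All 44 members have the same start and end in GENCODE M21. Genes were filtered with filterByExpr, scaled with TMM and tested with the quasi-likelihood test of edgeR 4.0.16 in R 4.3.3, each tissue apart (pancreas 2 against 3, adipose 3 against 3 libraries), and the tissue by condition term was tested on all 11. The standard error is the size of the log2 fold change over the square root of F. DESeq2 1.42.0 was an alternative. The scripts were tested on simulated data, where the share of false calls passed the nominal level when each gene kept its own dispersion, more so for DESeq2. For DESeq2 in adipose tissue it also passed that level when genes of a level shared their dispersion (13 false beside 157 found). Calls near the threshold are therefore less sure. Replicates are separate samples by label only, and their counts differed beyond counting noise (lowest chi-square per degree of freedom 7.57), so p-values measure the spread between these samples, which may be technical. Floors cover counting error only. Values are given for called members, the 5 highest per kb in each tissue, their partner chains, and up to 4 called genes of each other list with the smallest p. Members and lists were chosen with earlier results of these data known.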

Additional observations from a re-analysis of the deposited data

Results flagged for a closer look

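The tissue by condition term of edgeR passed the threshold for 5 of the 34 collagen genes tested, which is why these 5 are listed here. Over all tested genes 21.3% passed, so the collagen share was not above that. The difference of the log2 fold changes (adipose minus pancreas) was -2.86 for Col6a6, -1.39 for Col3a1, -3.03 for Col20a1, -2.14 for Col4a4 and -1.06 for Col7a1. Col3a1 was higher in each OA-AP pancreas library than in the controls and lower in each OA-AP adipose library, and Col7a1 had log2 fold changes of 0.48 (pancreas) and -0.57 (adipose). The terms of Col3a1 and Col6a6 passed in every alternative run, and those of Col20a1, Col4a4 and Col7a1 were lost in some.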

How the results depend on the processing

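The scale had the largest effect in the pancreas. With library totals alone, 6 collagen genes were upregulated and 1 downregulated there, and the share of increases among all calls went from 54.5% to 92.0%. Signs were compared only for called members, the 5 highest per kb and their partner chains. Of these, Col1a2 (0.38), Col4a4 (0.47), Col6a3 (0.0277) and Col6a6 (0.29) turned positive. In adipose tissue the same scale moved the median of all genes by -0.15 and the share of increases from 48.1% to 32.1%, and the tissue difference was called for 9 members (over all genes 392 higher and 6270 lower in adipose tissue, against 1842 and 1794). As a share of all counts the log2 ratios of the pancreas sums were 0.72 (fibrillar), 1.78 (basement membrane), 1.03 (other) and 1.15 (all), against 0.01, 1.07, 0.32 and 0.44 in CPM, and outside acinar genes 0.20 (other) and 0.32 (all). Leaving out single libraries gave 2 to 4 increases and 1 to 7 decreases in the pancreas, 4 to 5 and 6 to 16 in adipose tissue, and 3 to 6 tissue differences. Without a pancreas control the lone control is assumed to vary like the others. Signs in these runs were compared for the same members only. Log2 changes that turned sign there were pancreatic Col1a2 (-0.66 to 0.12, positive without control replicate 1), adipose Col20a1 (-0.19 to 0.0200, positive without control replicate 3) and adipose Col6a3 (-0.43 to 0.0775, positive without OA-AP replicate 2). Deviations of same-numbered control and OA-AP samples of a tissue had correlations of 0.00147 and -0.0410 in the pancreas, and -0.00580, 0.0562 and -0.163 in adipose tissue. The 2 pancreas controls deviate in opposite directions by construction, so these values cannot show that pairing is absent. They do not bear on whether pancreas and adipose samples share a mouse. With the numbers as a replicate block, 5 members were upregulated and 8 downregulated in the pancreas, 5 and 8 in adipose tissue, and 2 tissue differences were called. The adipose calls of Col4a3 and Col8a2 were lost with the block. Over all genes the block gave 2260 up and 1839 down in the pancreas, and 1745 and 1732 in adipose tissue. Over all genes, calls moved by over 1.5 times with library totals (5843 up and 506 down in the pancreas, 6662 tissue differences), without pancreas control replicate 1 (898 and 789) or 2 (833 and 662, and 2334 tissue differences), without adipose control replicate 3 (1308 down), with a fold change of 2 (1291 up in the pancreas, 1001 and 1227 in adipose tissue), with none (3065 up in adipose tissue) and with the block (2156 tissue differences). Elsewhere the cause was not tested. Col4a1 rose in both tissues, and Col6a5 and Col6a6 fell in adipose tissue, under every setting run.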
